A study of Mus musculus with 16 samples.

Results

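The potassium channel genes of the mouse ventricle were taken as the genes whose symbol starts with Kcn and whose normalized count was 10 or more in at least 4 of the 16 libraries. Of 96 such genes in the table of 22372 protein-coding genes, 49 met the rule and 47 did not. They encode the pore-forming subunits of voltage-gated, inwardly rectifying, two-pore-domain and calcium- or sodium-activated potassium channels, together with the cytoplasmic and membrane partners that set where and how these channels open. Choice of the members used only the level, not the difference between groups. In 39 members the mean was at least 10 in each of the 4 groups, and the other 10 (Kcna6, Kcnab3, Kcnc2, Kcnc4, Kcne3, Kcnip1, Kcnj4, Kcnj10, Kcnk1 and Kcns3) had a mean under 10 in at least 1 group. No member met the rule in the libraries of 1 group alone. Kcna6 and Kcnk1 met it almost only through sham libraries, with 0 libraries at 10 or more in TAC-Veh and 1 in TAC-THZ1. For these genes the rule is not neutral between sham and TAC. Just inside the rule lay Kcnc4 and Kcnj10, with 4 libraries each at 10 or more, and just outside lay Kcnma1, the pore of the large-conductance calcium-activated channel, with 3. Its group means were 2.06 in Sham-Veh and 2.83 for Sham-THZ1, compared with 21.4 in TAC-Veh and 4.12 in TAC-THZ1. Kcnh1, Kcne1l and Kcnn3, also just outside, had means of 4.36, 3.83 and 5.58 in Sham-Veh and 13.3, 10.8 and 8.46 in TAC-Veh. Kcnn4, an intermediate-conductance calcium-activated channel, reached 10 in 1 library and was not a member. Means were lower in TAC-Veh than in Sham-Veh for Kcng4 (1.68 and 5.16), Kcnq5 (6.15 and 6.78) and Kcnn4 (7.48 and 7.99). None of these genes outside the rule was tested.

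Potassium channels end the cardiac action potential and hold the resting membrane potential of heart cells. In the mouse ventricle the fast early repolarization is carried by the transient outward current, whose pores are made of Kv4 subunits and their KChIP partners, and by delayed rectifiers of the Kv1 and Kv2 families. Inward rectifiers set the resting potential, and other inward rectifiers open on acetylcholine through G proteins or on a fall in ATP. Loss of repolarizing potassium currents with a longer action potential is a known feature of hypertrophied and failing hearts.

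Libraries came from pieces of the heart ventricles of male mice of the strain C57BL/6J, 10 to 12 weeks old at first, with 4 mice in each of 4 groups. Transverse aortic constriction (TAC) narrows the aortic arch with a suture and loads the left ventricle with pressure, and the sham operation left the suture out. Mice of the Sham-THZ1 and TAC-THZ1 groups received THZ1, a covalent inhibitor of the transcription kinases CDK7, CDK12 and CDK13, by intraperitoneal injection in doses of 10 mg/kg given 2 times daily between postoperative days 1 and 60, and mice of the Sham-Veh and TAC-Veh groups received vehicle. The labels name no transgene or deletion, and the inhibitor was given to the whole animal. Bulk tissue was sequenced, so that fewer cells of a type and less RNA per cell cannot be told apart in any result below. Values are normalized counts, that is, reads per gene divided by a size factor of the library, and the recovered totals were 21.4 to 35.8 M reads per library. Nppa, a hormone gene of stressed heart muscle, was at 2434 to 4544 in the 8 sham libraries and at 49208 to 199788 in TAC-Veh, and its highest values were in TAC-Veh 1 (199788) and TAC-Veh 2 (112703). Cyp1a1, a cytochrome gene, was at 0 to 16.1 in the 8 libraries of vehicle mice. It was at 115 to 256 in Sham-THZ1 and at 850 to 1541 in TAC-THZ1, without overlap. Whether exposure to the drug was alike in sham and in TAC mice was not tested.

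Differences are log2 fold changes of normalized count + 1 from limma, fitted over all 16 libraries, with the standard error (SE) after the sign ±. A gene was called higher or lower at a Benjamini-Hochberg adjusted p under 0.05 over the 13331 genes that met the same level rule.

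The most abundant potassium channel transcript was Kcnk3, which encodes the acid-sensitive leak channel TASK. It held 19.2% of the summed normalized counts of the members. Together Kcnk3, Kcnip2 and Kcnj11 made up 44.4% of that sum. Per kilobase of exon, the mean level in Sham-Veh was 1293 for Kcnk3, 1074 for Kcnip2, 978 for Kcnj11 and 974 for Kcng2. Kcng2 had an annotated exon length of only 705 bases, so its level per kilobase is uncertain. Next in order came Kcnj8 with 493, Kcnj5 with 449.6, Kcnj3 with 389 and Kcnh2 with 381. These neighbours in the order were not tested against each other. Level spanned about 3 orders of magnitude, down to 1.36 per kilobase for Kcnj10. By mean over all libraries, 8 members had at least 1000 normalized counts, 14 had 100 to 1000 and 27 had fewer than 100.

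**Figure D1:**
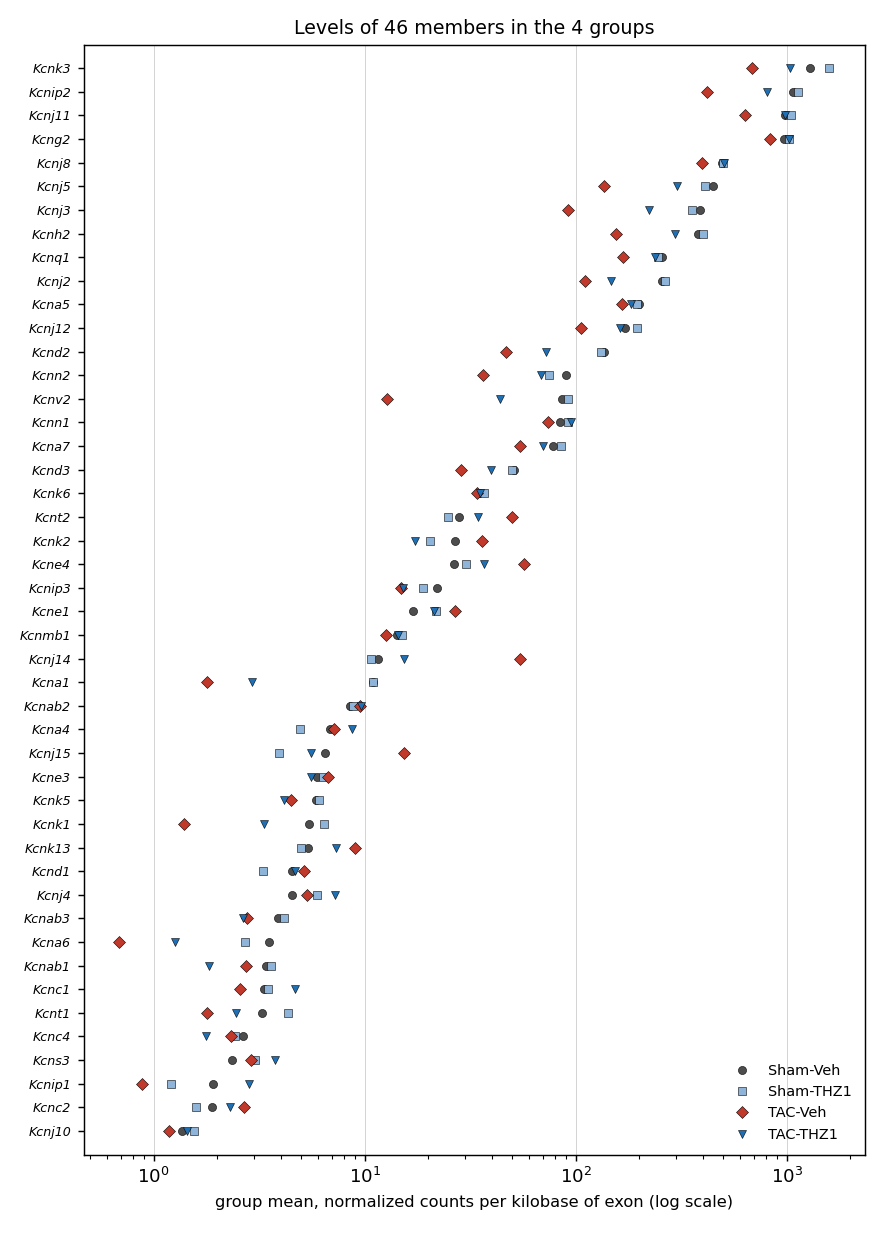
Group mean level of 46 potassium channel genes, in normalized counts per kilobase of exon on a log axis, ordered by the level in Sham-Veh, with 1 marker for each group of 4 libraries. Kcnk3 is at the top with 1293 in Sham-Veh, and the TAC-Veh diamonds of Kcnv2, Kcna1 and Kcnj3 lie far to the left of their sham markers while that of Kcnj14 lies to the right.

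TAC under vehicle lowered 24 of the 49 potassium channel genes and raised 5, and 20 passed the test in neither direction. Among all 13331 genes, 23.6% were called lower and 21.4% higher, so members were called lower more often than all genes. Higher calls were less frequent among the members, at 10.2%. The median log2 fold change of the members was -0.37, against -0.0030 for all genes tested. Lower members included pores and partners of the transient outward current, the G protein-gated and the strong inward rectifiers, the leak channel Kcnk3 and the delayed rectifier genes Kcnh2 and Kcnq1. Higher members were Kcnj14, Kcnj15, Kcne4, Kcnt2 and Kcnk2. The summed normalized count of the members was 24788 to 29395 in Sham-Veh and 12201 to 16866 in TAC-Veh, a mean ratio of 0.533.

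Heart muscle markers moved along with this fall. Of 12 ventricular cardiomyocyte markers, 6 were called lower and 1 higher with TAC under vehicle, and their summed level was 1408560 to 1518420 in Sham-Veh, 1434030 to 1496820 in Sham-THZ1 and 741175 to 1059890 in TAC-Veh. Fibroblast markers went the other way, with 7 of 10 called higher and a summed level of 59924 to 66881 in Sham-Veh and 92494 to 127911 in TAC-Veh. Of 9 macrophage markers 5 were called higher, with a summed level of 8633 to 10650.1 in Sham-Veh and 13233 to 16124 in TAC-Veh. The shares called over all genes were 23.6% lower and 21.4% higher. None of these markers was at 0 in all libraries. The part of these cell markers in the change of the potassium channel genes was not tested. Among the TAC-Veh libraries, TAC-Veh 1 was the lowest in 15 of the 24 lower members and TAC-Veh 2 in 7, and these are the libraries with the highest Nppa. With both left out, 19 members were called lower and 3 higher. The calls that ended were Kcna7, Kcnip1, Kcnj8, Kcnk1 and Kcnt1 among the lower and Kcnj15 and Kcnk2 among the higher members.

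**Figure D2:**
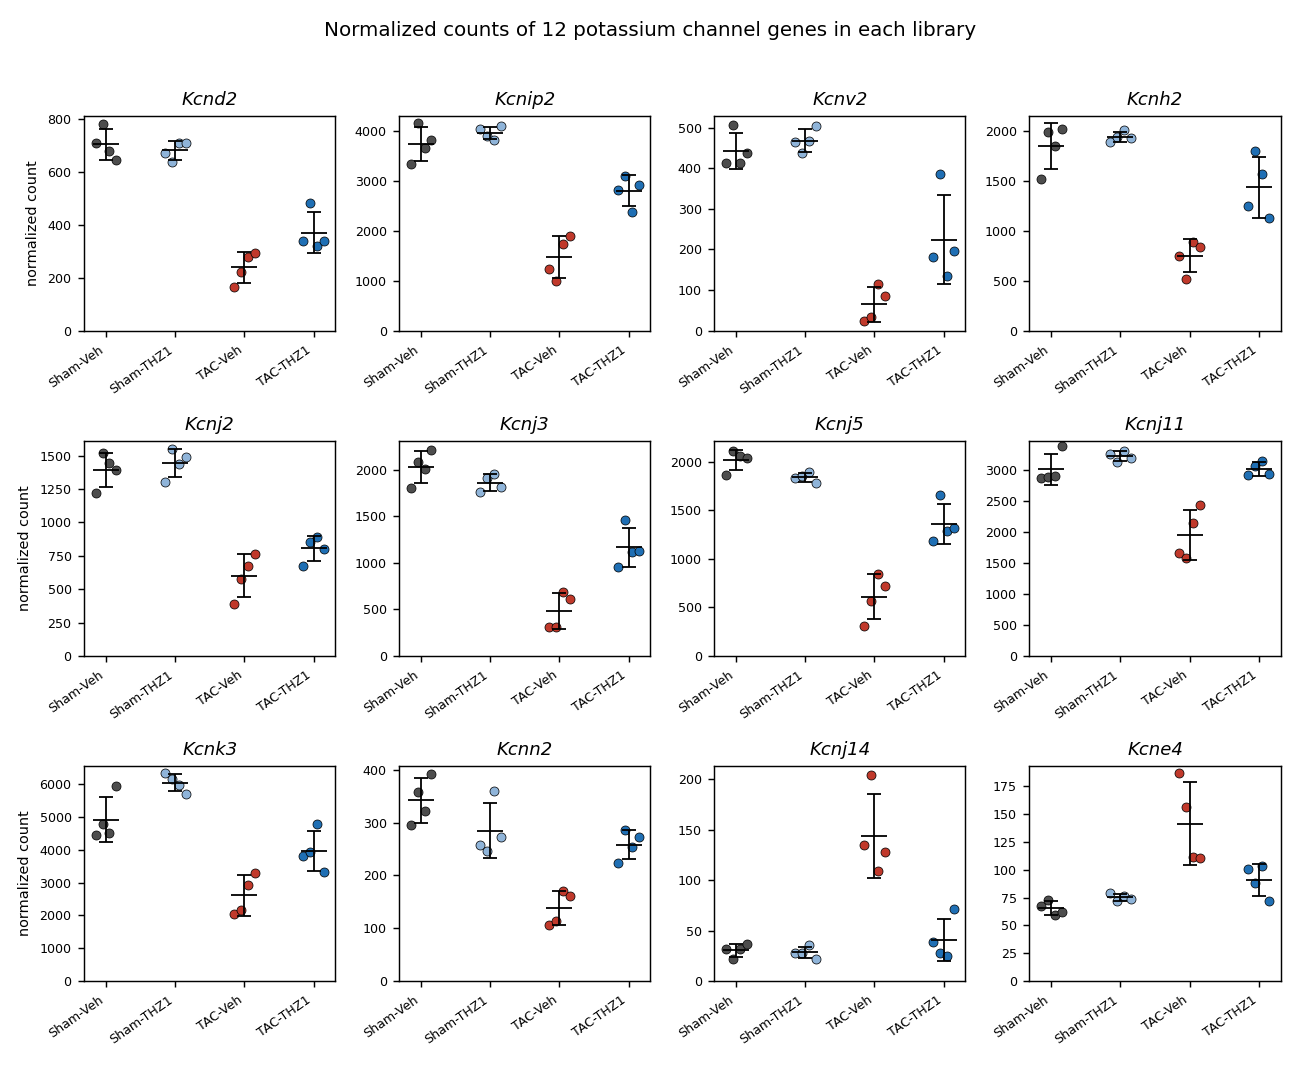
Normalized count (linear axis from 0) of 12 potassium channel genes in each of the 16 libraries, 4 points to a group, with the mean as a bar and the SD as whiskers. In Kcnd2, Kcnip2, Kcnv2, Kcnh2, Kcnj2, Kcnj3, Kcnj5, Kcnj11, Kcnk3 and Kcnn2 all 4 TAC-Veh points lie below all 4 Sham-Veh points, and in Kcnj14 and Kcne4 they lie above.

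The G protein-gated channel that acetylcholine opens is a tetramer of the products of Kcnj3 and Kcnj5, and both genes fell together. Kcnj3 (ENSMUSG00000026824, chr2:55288381-55450556 on build NCBIM37, as for all gene positions given) had 1804, 2089, 2011 and 2217 normalized counts in Sham-Veh and 1764, 1918, 1961 and 1815 for Sham-THZ1, compared with 312, 315, 691 and 608 in TAC-Veh. The groups did not overlap, and its log2 difference was -2.16 ± 0.21 (SE, adjusted p = 1.16e-06). Kcnj5 (chr9:32122368-32151822) had 1868, 2114, 2059 and 2045 in Sham-Veh and 1831, 1851, 1902 and 1785 for Sham-THZ1, compared with 312, 569, 846 and 717 in TAC-Veh, again without overlap, and changed by -1.82 ± 0.21 (SE, adjusted p = 5e-06). Under THZ1 the TAC hearts held more of both transcripts. Kcnj3 stood at 958, 1465, 1122 and 1123 in TAC-THZ1, which was 1.35 ± 0.21 (SE, adjusted p = 0.000296) above TAC-Veh. Kcnj5 stood at 1181, 1658, 1289.8 and 1324, a difference of 1.24 ± 0.21 (SE, adjusted p = 0.000537). All 4 TAC-THZ1 values of each gene lay between the highest TAC-Veh and the lowest Sham-Veh value. In sham hearts THZ1 moved them by -0.12 ± 0.21 and -0.13 ± 0.21, and neither passed the test. A long noncoding gene on the opposite strand covers 31.1% of the exons of Kcnj3, and counting was by strand.

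Promoters of Kcnj3, Kcnj5, Kcnip2 and Kcnd2 are printed because these pores and partners all fell with TAC and were higher with THZ1 in TAC. Each is the RefSeq promoter of mouse build GRCm38.p6, a window of 300 bases that lies mostly before the annotated start, 5′ to 3′ on the strand of the gene, and both strands were searched for 7 motifs. Capitals mark the matches found. These were the GC box, with the letters GGGCGG, the CCAAT box, which reads ATTGG on the other strand, and a form of the E-box, with the letters CAGCTG.
Kcnj3 (chr2:55435720-55436019, plus strand): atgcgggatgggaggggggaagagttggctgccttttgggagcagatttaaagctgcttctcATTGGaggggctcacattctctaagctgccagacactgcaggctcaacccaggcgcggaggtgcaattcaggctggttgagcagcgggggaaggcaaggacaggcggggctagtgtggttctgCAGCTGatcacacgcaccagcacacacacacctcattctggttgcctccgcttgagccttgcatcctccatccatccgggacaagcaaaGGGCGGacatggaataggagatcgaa
Kcnj5 (chr9:32344295-32344594, minus strand): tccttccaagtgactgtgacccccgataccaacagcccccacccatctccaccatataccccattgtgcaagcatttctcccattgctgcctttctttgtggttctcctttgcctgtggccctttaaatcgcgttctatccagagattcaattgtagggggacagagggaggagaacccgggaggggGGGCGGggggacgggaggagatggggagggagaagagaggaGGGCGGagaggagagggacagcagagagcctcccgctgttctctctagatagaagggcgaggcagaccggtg
Kcnip2 (chr19:45816014-45816313, minus strand): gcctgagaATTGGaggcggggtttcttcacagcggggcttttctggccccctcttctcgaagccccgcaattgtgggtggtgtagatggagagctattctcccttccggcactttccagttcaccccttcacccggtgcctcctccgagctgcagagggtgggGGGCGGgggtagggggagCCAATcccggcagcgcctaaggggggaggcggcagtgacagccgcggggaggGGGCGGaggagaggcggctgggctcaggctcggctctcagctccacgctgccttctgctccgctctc
Kcnd2 (chr6:21215096-21215395, plus strand): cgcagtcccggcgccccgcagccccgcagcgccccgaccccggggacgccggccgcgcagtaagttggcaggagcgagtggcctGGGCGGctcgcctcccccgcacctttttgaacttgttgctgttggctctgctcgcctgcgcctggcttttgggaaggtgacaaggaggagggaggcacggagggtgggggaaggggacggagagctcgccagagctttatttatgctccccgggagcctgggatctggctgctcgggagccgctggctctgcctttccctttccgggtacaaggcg
All 4 windows hold at least 1 GC box, and none of the marked letters belong to more than 1 motif. Kcnj3 and Kcnip2 also hold a CCAAT box, and Kcnj3 holds the E-box. The RefSeq set matched 33 of the 49 members with 50 promoters. A GC box was present in 46% of these promoters and in 35.7% of 32851 promoters of all genes, the E-box in 30% and 16.3%, and CCAAT in 32% and 37.4%. The letters TATAAA of the TATA box were found in 4% and 13.6%. For AGATAA, bound by GATA factors, the shares were 4% and 11.2%. For TGACTCA, the AP-1 motif, they were 4% and 5.2%, and for AAGGTCA, a nuclear receptor half-site, 0% and 4.72%. The median GC content was 57.8% for the members and 52.7% for all promoters. These matches are a description of letters and not of bound sites.

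The pores of the transient outward current fell, and the fall was uneven between them. Kcnd2 (chr6:21165503-21679805), the Kv4 pore gene, had 709.7, 784, 682 and 647 in Sham-Veh and 672, 638, 711 and 710.2 for Sham-THZ1, compared with 166, 221, 279 and 296 in TAC-Veh. These groups did not overlap, and Kcnd2 fell with a log2 change of -1.58 ± 0.15 (SE, adjusted p = 1.27e-06). Kcnd3, the second Kv4 pore gene, went from 466, 465, 524 and 499 in Sham-Veh to 201, 258, 321 and 320.3 in TAC-Veh, with 463, 471, 492 and 493 in Sham-THZ1, a change of -0.85 ± 0.12 (SE, adjusted p = 5.37e-05). With THZ1 in TAC, Kcnd2 reached 339.6, 485, 321 and 341 and Kcnd3 355, 425, 329 and 419. Both were higher than in TAC-Veh, by 0.64 ± 0.15 (SE, adjusted p = 0.0056) and 0.49 ± 0.12 (SE, adjusted p = 0.00808). Without TAC-Veh 1 and 2 these differences were 0.35 (adjusted p = 0.0748) and 0.24 (adjusted p = 0.0998), past the threshold in neither gene. The TAC-THZ1 value of Kcnd2 in library 2 (485) stood apart from the other 3, and every TAC-THZ1 library was below every sham library. Kcna4, the Kv1 pore of the slow transient outward current, was low at 19.1, 41.7, 38.0 and 33.3 in Sham-Veh and 11.9, 29.4, 25.4 and 28.4 for Sham-THZ1, compared with 57.6, 23.6, 27.7 and 29.0 in TAC-Veh, with a log2 change of 0.03 ± 0.38 (SE, adjusted p = 0.961). In TAC-THZ1 Kcna4 had 18.6, 43.3, 67.5 and 39.6. Kcnd1 ranged from 8.23 to 38.3 over all libraries, with 0.01 ± 0.38 for TAC.

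KChIP proteins bind Kv4 pores and bring them to the membrane, and Kcnip2 is the main one of the ventricle. Its normalized count was 3340.4, 4144, 3644 and 3806 in Sham-Veh and 4024, 3889.9, 3821 and 4091 for Sham-THZ1, compared with 1229.8, 1001, 1741 and 1893 in TAC-Veh and 2818, 3089.7, 2367 and 2915 in TAC-THZ1. All TAC-Veh libraries were below all others, and all TAC-THZ1 libraries were below all sham libraries. TAC under vehicle changed Kcnip2 (chr19:45866329-45890551) by -1.39 ± 0.15 (SE, adjusted p = 3.32e-06), and THZ1 in TAC raised it by 0.97 ± 0.15 (SE, adjusted p = 0.000311). Kcnip3, which also acts as a calcium-binding transcriptional repressor, had 83.8, 77.0, 80.5 and 71.2 in Sham-Veh and 70.4, 68.3, 72.1 and 56.7 for Sham-THZ1, compared with 65.8, 41.5, 40.6 and 62.2 in TAC-Veh, a change of -0.60 ± 0.17 (SE, adjusted p = 0.00889). In TAC-THZ1 it was at 54.6, 66.2, 45.6 and 48.5, with 0.05 ± 0.17, a difference that was not past the threshold. Kcnip1 was near the floor of the rule, at 12.7, 9.63, 12.4 and 12.6 in Sham-Veh and 7.16, 4.32, 13.4 and 5.07 for Sham-THZ1, compared with 3.53, 3.58, 7.93 and 6.81 in TAC-Veh and 7.64, 22.9, 17.9 and 21.8 in TAC-THZ1. It was called lower with TAC (-1.05 ± 0.38, adjusted p = 0.0342) and higher with THZ1 in TAC (1.49 ± 0.38, adjusted p = 0.00862). The first call was lost without Sham-Veh 1, 3 or 4 or TAC-Veh 1 or 2, with an adjusted p of up to 0.0915, and both were lost without TAC-Veh 1 and 2 together.

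Of the 9 delayed rectifier genes of the Kv1, Kv2 and Kv3 families, 5 were called lower with TAC and none higher. Over all genes, 23.6% were called lower and 21.4% higher. The abundant Kcna5 was not among those called. Kcna5, the pore of the ultrarapid delayed rectifier, had 615, 578, 495 and 711 in Sham-Veh and 687, 408, 605 and 656 for Sham-THZ1, compared with 710.1, 335, 463 and 475 in TAC-Veh, overlapping groups with a log2 change of -0.31 ± 0.24 (SE, adjusted p = 0.3) and a 95% interval of -0.82 to 0.19. In TAC-THZ1 it had 676, 682, 329.6 and 512.

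Kcna1, a Kv1 pore known from nerve axons, fell from 103, 89.8, 84.9 and 117 in Sham-Veh to 20.0, 5.01, 11.9 and 27.3 in TAC-Veh, with 101, 113, 60.1 and 119.5 in Sham-THZ1, a log2 change of -2.76 ± 0.47 (SE, adjusted p = 0.000188). The groups did not overlap. With THZ1 in TAC it had 17.5, 39.5, 8.14 and 39.6, and the difference from TAC-Veh of 0.65 ± 0.47 did not pass the test (95% interval -0.33 to 1.63). Kcna6 (-2.13 ± 0.41, adjusted p = 0.000515) followed the same course with TAC at a low level, from 21.0 ± 4.55 (SD, n = 4) in Sham-Veh to 4.07 ± 1.38 in TAC-Veh. Kcna7, a Kv1 pore of muscle, had 285, 263, 255 and 291 in Sham-Veh and 321, 299, 295 and 283 for Sham-THZ1, compared with 149, 164, 213 and 238 in TAC-Veh, a change of -0.54 ± 0.15 (SE, adjusted p = 0.00797), and 219.5, 290.3, 183 and 285 in TAC-THZ1. Without TAC-Veh 1 and 2 its change with TAC was -0.28 (adjusted p = 0.17). Among markers of other cells, 3 of 5 Schwann and neural genes tested were also lower with TAC and 1 was higher, with a summed level of 341 to 356 in Sham-Veh and 210.0 to 305 in TAC-Veh, and their part in the fall of Kcna1 was not tested. For all genes the shares were 23.6% lower and 21.4% higher. Kcnc1 was called higher with THZ1 in TAC (1.06 ± 0.36, adjusted p = 0.038), with 9.41, 13.6, 24.8 and 46.0 in TAC-Veh and 52.4, 40.7, 30.9 and 47.5 in TAC-THZ1. DESeq2 and edgeR did not make this call, and leaving out TAC-Veh 1 or 2 or TAC-THZ1 1, 2 or 4 also ended it. Kcnc2 and Kcnc4 were called in no comparison, with ranges of 5.34 to 20.0 and 0.814 to 14.9 over all libraries.

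Electrically silent subunits form no channel alone and modify Kv2 pores. Kcnv2 fell with TAC under vehicle. Its normalized count was 414, 505, 412 and 437 in Sham-Veh and 465, 436, 466 and 505 for Sham-THZ1, compared with 24.7, 34.3, 116 and 86.0 in TAC-Veh, and the groups did not overlap. The log2 difference was -3.00 ± 0.37 (SE, adjusted p = 1.24e-05). It was -2.13 (adjusted p = 2.68e-05) without TAC-Veh 1 and 2, beside -2.37 (adjusted p = 0.00171) for Kcna1. TAC-THZ1 had 181, 386, 134 and 197, above all TAC-Veh libraries, with 1.92 ± 0.37 (SE, adjusted p = 0.0016). Kcng2, another silent subunit, was called only with THZ1 in TAC (0.31 ± 0.10, adjusted p = 0.0235), at 687, 463, 598 and 608 in TAC-Veh and 654, 760.0, 697 and 792 in TAC-THZ1, and leaving out TAC-Veh 2 or TAC-THZ1 2 or 4 ended the call. With TAC it stood at -0.23 ± 0.10 (adjusted p = 0.0581). Kcns3 was called in no comparison and ranged from 3.41 to 16.4.

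The delayed rectifiers of the later action potential, Kcnh2 (the ERG pore) and Kcnq1, fell with TAC and were higher again with THZ1 in TAC. Kcnh2 had 1521, 1996, 1853 and 2022 in Sham-Veh and 1894, 1939, 2007 and 1928 for Sham-THZ1, compared with 754, 519.8, 893 and 839.9 in TAC-Veh and 1252, 1805, 1567 and 1130.2 in TAC-THZ1. TAC-Veh lay below every other group without overlap, with -1.32 ± 0.16 (SE, adjusted p = 7.86e-06) for TAC and 0.94 ± 0.16 (SE, adjusted p = 0.000549) for THZ1 in TAC. Kcnq1 had 646, 804, 847 and 890.4 in Sham-Veh and 776, 721, 803 and 730.4 for Sham-THZ1, compared with 504, 511, 517 and 545 in TAC-Veh and 683, 752, 812 and 676 in TAC-THZ1. It was lower too, with a log2 change of -0.61 ± 0.09 (SE, adjusted p = 5.19e-05), and its TAC-THZ1 values overlapped those of Sham-Veh.

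Among the KCNE and Kv beta subunits, Kcne4 was the one called with TAC under vehicle, and it rose. Kcne4, a small membrane protein that damps Kv1 and KCNQ currents, had 67.9, 73.0, 59.2 and 62.0 in Sham-Veh and 78.7, 71.7, 76.1 and 74.0 for Sham-THZ1, compared with 187, 157, 112 and 111 in TAC-Veh, with 1.07 ± 0.16 (SE, adjusted p = 6.44e-05). In TAC-THZ1 it had 100.5, 87.8, 103 and 72.2, -0.61 ± 0.16 (SE, adjusted p = 0.00956) from TAC-Veh, and that value was -0.30 (adjusted p = 0.174) without TAC-Veh 1 and 2. Kcne1, the partner of Kcnq1 in the slow delayed rectifier, had 39.2, 54.5, 54.8 and 68.9 in Sham-Veh and 60.8, 55.3, 70.8 and 92.2 for Sham-THZ1, compared with 166, 70.1, 65.4 and 42.6 in TAC-Veh and 29.5, 68.7, 119.6 and 55.4 in TAC-THZ1, a wide spread in both TAC groups, with 0.49 ± 0.38 (SE, adjusted p = 0.314). Kcnab1, a Kv beta subunit, was at 32.9, 21.7, 26.5 and 36.8 in Sham-Veh and 25.9, 17.2, 15.9 and 35.8 in TAC-Veh (-0.35 ± 0.24, adjusted p = 0.256). Kcnab2, Kcnab3 and Kcne3 were called in no comparison, and their log2 fold changes with TAC were 0.14 ± 0.25, -0.40 ± 0.40 and 0.21 ± 0.42.

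Strong inward rectifiers hold the resting potential of ventricular muscle, and they did not move as 1 group. Kcnj2, the main pore of this current, fell from 1222, 1523, 1446 and 1391 in Sham-Veh to 393, 579.9, 675 and 762 in TAC-Veh, with 1304, 1554, 1436 and 1493 in Sham-THZ1. Its log2 difference was -1.25 ± 0.15 (SE, adjusted p = 9.3e-06), and no values overlapped. Kcnj12 fell from 397, 474, 483 and 539 in Sham-Veh to 317, 222, 317 and 313 in TAC-Veh, with 514, 560.0, 556 and 528 in Sham-THZ1, and its change with TAC was -0.70 ± 0.14 (SE, adjusted p = 0.000713). Kcnj14, a lower-expressed pore of the same family, moved the opposite way. It rose from 31.8, 21.7, 31.8 and 36.8 in Sham-Veh to 135, 204, 109 and 128 in TAC-Veh, with 27.4, 27.7, 36.1 and 22.3 in Sham-THZ1, and its change with TAC was 2.19 ± 0.28 (SE, adjusted p = 1.61e-05), the largest rise of the 49 members. In TAC-THZ1 Kcnj14 was back at 38.2, 28.0, 25.2 and 71.3, which overlapped Sham-Veh, with -1.88 ± 0.28 (SE, adjusted p = 0.000256) from TAC-Veh. Kcnj12 was higher with THZ1 in TAC, at 427, 432, 575 and 351 (0.60 ± 0.14, adjusted p = 0.00453). Kcnj2 was called higher too, at 675, 852, 893 and 801 (0.45 ± 0.15, adjusted p = 0.0332), but the call was lost without TAC-Veh 1 or 2 or TAC-THZ1 2, 3 or 4, and the difference was 0.16 (adjusted p = 0.342) without both TAC-Veh libraries. Every TAC-THZ1 value of Kcnj2 stayed below every sham value. Kcnj4 was called in no comparison (0.35 ± 0.50 with TAC).

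The pores of the ATP-sensitive channel, which links membrane potential to metabolism, also fell with TAC. Kcnj11, the pore of the sarcolemmal channel of muscle, had 2862, 2887, 2901 and 3378 in Sham-Veh and 3259.8, 3127, 3306 and 3191 for Sham-THZ1, compared with 1661, 1577, 2136 and 2431 in TAC-Veh and 2917, 3055, 3151 and 2930.3 in TAC-THZ1. It changed by -0.64 ± 0.11 (SE, adjusted p = 0.000143) with TAC and by 0.65 ± 0.11 (SE, adjusted p = 0.000467) with THZ1 in TAC, and its TAC-THZ1 and Sham-Veh values overlapped. Kcnj8, the pore that is abundant in mural cells of vessels, had 1000.3, 1105, 1082 and 1124 in Sham-Veh and 1124, 1105, 1040.4 and 1097 for Sham-THZ1, compared with 754, 770.1, 972 and 995 in TAC-Veh and 1147, 1142, 1047 and 1106 in TAC-THZ1. Its changes were -0.31 ± 0.08 (SE, adjusted p = 0.00572) for TAC and 0.36 ± 0.08 (SE, adjusted p = 0.00465) for THZ1 in TAC. Without TAC-Veh 1 and 2 these were -0.13 (adjusted p = 0.133) and 0.17 (adjusted p = 0.0715). Of 8 pericyte markers, 4 were lower with TAC and none higher, with a summed level of 32072 to 33639 in Sham-Veh and 19514 to 29149 in TAC-Veh. One of the lower markers is Abcc9, itself a partner of this channel, so the marker list is not separate from it. Of all genes tested, 23.6% were lower and 21.4% higher with TAC under vehicle. The part of the pericyte markers in Kcnj8 was not tested. Of the other inward rectifiers, Kcnj15 rose from 59.4, 40.1, 30.9 and 44.8 in Sham-Veh to 132, 144, 58.5 and 80.1 in TAC-Veh, with 34.6, 24.2, 32.1 and 15.2 in Sham-THZ1 (1.17 ± 0.34, adjusted p = 0.0112) and had 45.9, 17.8, 47.2 and 38.6 in TAC-THZ1 (-1.45 ± 0.34, adjusted p = 0.00535). Without TAC-Veh 1 and 2 its change with TAC was 0.67 (adjusted p = 0.198). Kcnj10 was called in no comparison.

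Two-pore-domain channels carry background leak currents. Kcnk3 (chr5:30890543-30927643) had 4458, 4789, 4518 and 5939.7 in Sham-Veh and 6342, 6174, 5982 and 5712 for Sham-THZ1, compared with 2038, 2154, 2942 and 3307 in TAC-Veh and 3815, 3946, 4802 and 3315 in TAC-THZ1. TAC-Veh lay below both sham groups, with -0.94 ± 0.14 (SE, adjusted p = 7.27e-05). THZ1 in TAC raised it by 0.62 ± 0.14 (SE, adjusted p = 0.00424), and the same difference was 0.33 (adjusted p = 0.0781) without TAC-Veh 1 and 2. Kcnk2, the stretch-sensitive TREK channel, moved differently. It had 90.2, 99.5, 95.5 and 102 in Sham-Veh and 77.5, 68.3, 78.8 and 70.9 for Sham-THZ1, compared with 119.9, 162, 111 and 129 in TAC-Veh and 48.1, 59.8, 52.9 and 90.1 in TAC-THZ1, so that the 4 vehicle sham values lay between the TAC-Veh and the TAC-THZ1 values. The fall with THZ1 in TAC was -1.08 ± 0.16 (SE, adjusted p = 0.000292). Its rise with TAC was at the threshold, 0.42 ± 0.16 (SE, adjusted p = 0.0486), and 12 of the 16 single libraries ended that call when left out (the 4 of Sham-Veh, the 4 of Sham-THZ1, TAC-Veh 1, 2 and 4, and TAC-THZ1 2), with an adjusted p of up to 0.159. Kcnk1 fell at a low level, from 18.0, 4.81, 7.96 and 19.5 in Sham-Veh to 2.35, 2.15, 4.95 and 3.41 in TAC-Veh (-1.55 ± 0.48, adjusted p = 0.015), and lost the call without Sham-Veh 1 or 4 (adjusted p up to 0.0566). Kcnk5, Kcnk6 and Kcnk13 were called in no comparison, with -0.37 ± 0.23, -0.04 ± 0.11 and 0.70 ± 0.29 for TAC.

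Calcium- and sodium-activated channels were split. Kcnn2, a small-conductance channel opened by calcium through calmodulin, had 295, 358, 323 and 393 in Sham-Veh and 258, 246, 361 and 274 for Sham-THZ1, compared with 107, 114, 170.4 and 162 in TAC-Veh and 224, 285, 253 and 272 in TAC-THZ1. It fell with TAC, a change of -1.32 ± 0.16 (SE, adjusted p = 7.29e-06), and was higher with THZ1 in TAC by 0.92 ± 0.16 (SE, adjusted p = 0.000598), and TAC-Veh overlapped no other group. Kcnt2, a sodium-activated channel, rose from 189.9, 172, 172 and 172 in Sham-Veh to 377, 340.4, 257 and 276 in TAC-Veh, with 159.8, 159.9, 183 and 119 in Sham-THZ1, and its change with TAC was 0.80 ± 0.14 (SE, adjusted p = 0.000242). TAC-THZ1 had 258, 189.7, 209 and 207, which was -0.52 ± 0.14 from TAC-Veh (adjusted p = 0.0104) and -0.31 (adjusted p = 0.162) without TAC-Veh 1 and 2. Its relative Kcnt1 was called lower with TAC at a low level, 22.3, 32.1, 17.7 and 26.4 in Sham-Veh against 9.41, 11.4, 10.9 and 22.1 in TAC-Veh (-0.87 ± 0.30, adjusted p = 0.0268), a call that ended without Sham-Veh 2 or 4 or TAC-Veh 1, 2 or 3 (adjusted p up to 0.0862). Kcnn1, the neuronal-type relative of Kcnn2, was called with THZ1 in TAC only (0.39 ± 0.13, adjusted p = 0.0297), and the call ended without TAC-Veh 1 or 2 or TAC-THZ1 1 or 4. Kcnmb1, the smooth muscle partner of the large-conductance channel, was called in no comparison (-0.16 ± 0.14 with TAC, 95% interval -0.45 to 0.13). Of 7 smooth muscle markers, 3 were lower and 1 higher with TAC, at 7341 to 9333 in Sham-Veh and 5394 to 6635 in TAC-Veh in sum. Beside them, 23.6% of all genes were called lower and 21.4% higher. Below the level rule, Kcnma1 had 1.06, 1.60, 4.42 and 1.15 in Sham-Veh and 3.58, 1.73, 4.01 and 2.03 for Sham-THZ1, compared with 25.9, 32.9, 7.93 and 18.7 in TAC-Veh and 5.46, 2.55, 6.51 and 1.98 in TAC-THZ1, and it was not tested. Kcnn4, also untested, had 8.49, 7.22, 7.07 and 9.19 in Sham-Veh and 8.35, 7.78, 4.01 and 9.12 for Sham-THZ1, compared with 5.88, 8.58, 6.93 and 8.52 in TAC-Veh and 6.55, 5.09, 4.88 and 12.9 in TAC-THZ1.

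The balance within pairs of subunit genes was compared as a share per kilobase of exon, with exact two-sided permutation tests of 4 against 4 libraries and adjustment over 12 comparisons. The smallest p of this design is 0.0286, and its adjusted p is under 0.05 only when most of the 12 comparisons reach it. No comparison reached an adjusted p under 0.05, which therefore does not show that the shares were alike. The share of Kcnd2 in Kcnd2 plus Kcnd3 stood at 72.8% ± 2.51 (SD, n = 4) in Sham-Veh and 72.6% ± 0.657 for Sham-THZ1, compared with 61.7% ± 1.11 in TAC-Veh and 64.2% ± 3.15 in TAC-THZ1. Both TAC groups lay below both sham groups with no overlap (exact permutation p = 0.0286, adjusted p = 0.0686, for TAC under vehicle and for TAC under THZ1), whereas the THZ1 and vehicle groups overlapped within each surgery. The share of Kcnj2 in Kcnj2 plus Kcnj12 stood at 59.9% ± 2.30 in Sham-Veh and 57.5% ± 1.30 for Sham-THZ1, compared with 50.6% ± 8.36 in TAC-Veh and 47.9% ± 4.60 in TAC-THZ1. Under THZ1 the TAC values lay below those of sham with no overlap (exact permutation p = 0.0286, adjusted p = 0.0686), while under vehicle the groups overlapped (exact permutation p = 0.0571, adjusted p = 0.114). TAC-Veh 1 was at 38.5% and the other TAC-Veh libraries at 51.8% to 56.9%, and the difference from Sham-Veh went from -9.30 to -5.26 percentage points without it. For Kcnj8 in Kcnj8 plus Kcnj11 it was, in the same order of groups, 33.5% ± 1.42, 32.3% ± 1.10, 38.8% ± 1.72 and 34.1% ± 1.61, so that TAC-Veh was above each of the other groups (exact permutation p = 0.0286, adjusted p = 0.0686, against Sham-Veh and against TAC-THZ1).

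**Figure D3:**
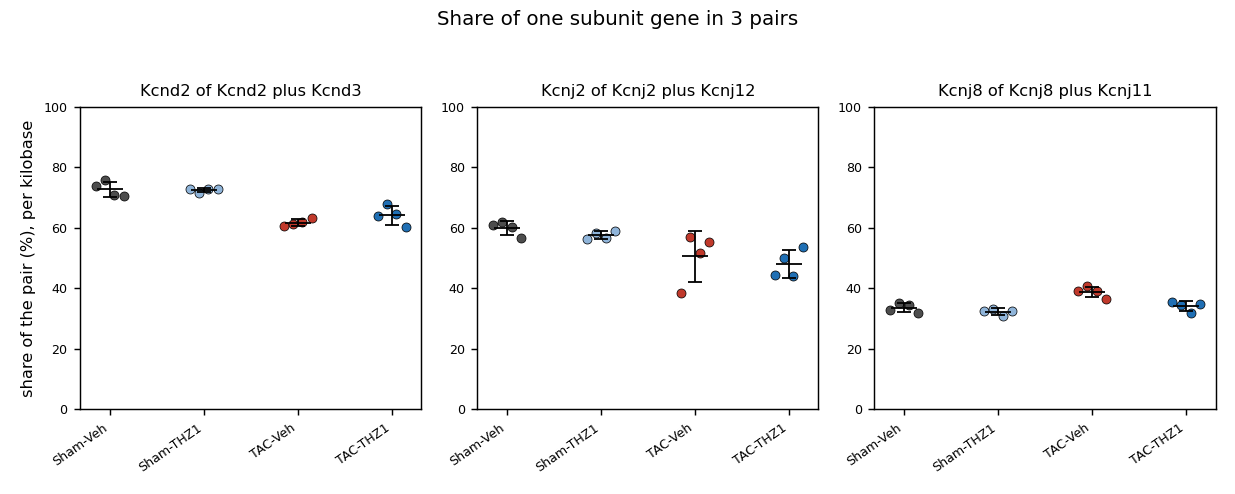
Share in percent (axis from 0 to 100) of the first gene in each of 3 pairs, from normalized counts per kilobase of exon, with 4 libraries to a group, the mean as a bar and the SD as whiskers. The Kcnd2 share falls from 72.8% in Sham-Veh to 61.7% in TAC-Veh and stays at 64.2% in TAC-THZ1, while the Kcnj8 share is highest in TAC-Veh at 38.8%.

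THZ1 in sham hearts called none of the 49 members in limma, DESeq2 or edgeR, while 4 had an unadjusted limma p under 0.05. The background was small too, with 0.0225% of all genes called higher and 0.045% lower. An unadjusted p under 0.05 was found for 917 of the 13331 genes. The median log2 fold change of the members was 0.08. Kcnk3 stood at 0.31 ± 0.14 and Kcnk2 at -0.39 ± 0.16, with adjusted p-values from limma of 0.719 and 0.692.

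With THZ1 in TAC, 18 members were called higher than in TAC-Veh and 6 lower. For all genes 15.1% were called higher and 14.2% lower, against 36.7% and 12.2% of the members, and the median of the members was 0.35 against 0.01 for all genes. The lower members included Kcnj14, Kcnj15, Kcnk2, Kcne4 and Kcnt2. This comparison and that of TAC with sham under vehicle share the TAC-Veh libraries, so the values of each gene are given side by side above and their likeness is no separate result. Without TAC-Veh 1 and 2, the counts were 10 higher and 2 lower. The higher calls that ended were Kcnc1, Kcnd2, Kcnd3, Kcnip1, Kcnj2, Kcnj8, Kcnk3 and Kcnn1, and the lower calls that ended included Kcne4, Kcnj15 and Kcnt2. A fit of the TAC groups alone, with their own wider spread, ended the higher calls of Kcnc1, Kcnd2, Kcnd3, Kcng2, Kcnip1, Kcnj2, Kcnj8 and Kcnn1. The lower calls that ended in it included Kcne4 and Kcnt2. Ventricular cardiomyocyte markers were again found to move alongside, with 8 of 12 higher and 1 lower and a summed level of 1233880 to 1533110 in TAC-THZ1. Fibroblast markers were lower in 6 of 10, at 64491 to 86265. Their part in the values of the potassium channel genes was not tested.

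Whether THZ1 acted differently in TAC and in sham was tested by the interaction, which called 9 members higher and 2 lower, where 4.4% of all genes were called higher and 5.62% lower. The difference between the response in TAC and that in sham was 1.47 ± 0.29 (SE, adjusted p = 0.00738) for Kcnj3, 1.37 ± 0.29 for Kcnj5 (adjusted p = 0.0102) and 1.20 ± 0.22 for Kcnn2 (adjusted p = 0.00482). It was 0.88 ± 0.21 for Kcnip2 (adjusted p = 0.0177), 0.55 ± 0.13 for Kcnq1 (adjusted p = 0.0137) and -1.78 ± 0.40 for Kcnj14 (adjusted p = 0.0126). These 6 kept the call under every other fit tried. The other 5 lost it under some, and all 5 without TAC-Veh 1 and 2 together. Kcnip1 (2.19 ± 0.54, adjusted p = 0.0205) lost it in that fit alone, at 1.75 (adjusted p = 0.0812). Kcnh2 (0.86 ± 0.22, adjusted p = 0.0243) lost it without Sham-Veh 2 or 4 or TAC-THZ1 2, with an adjusted p of up to 0.0548. Kcnj11 (0.55 ± 0.15, adjusted p = 0.0303) lost it without Sham-Veh 2, 3 or 4, Sham-THZ1 1, 2 or 4, TAC-Veh 2 or TAC-THZ1 2 (up to 0.0635). Kcne4 (-0.81 ± 0.23, adjusted p = 0.0345) lost it without Sham-Veh 3 or 4, any of the 4 Sham-THZ1 libraries, TAC-Veh 2, or TAC-THZ1 2 or 4 (up to 0.0715). Kcnv2 (1.83 ± 0.53, adjusted p = 0.0386) lost it without any of the 8 sham libraries, TAC-Veh 2, or TAC-THZ1 2 or 4 (up to 0.0819). The Kv4 pores were near the threshold, with 0.69 ± 0.22 for Kcnd2 (adjusted p = 0.0541) and 0.51 ± 0.18 for Kcnd3 (adjusted p = 0.0722).

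**Figure D4:**
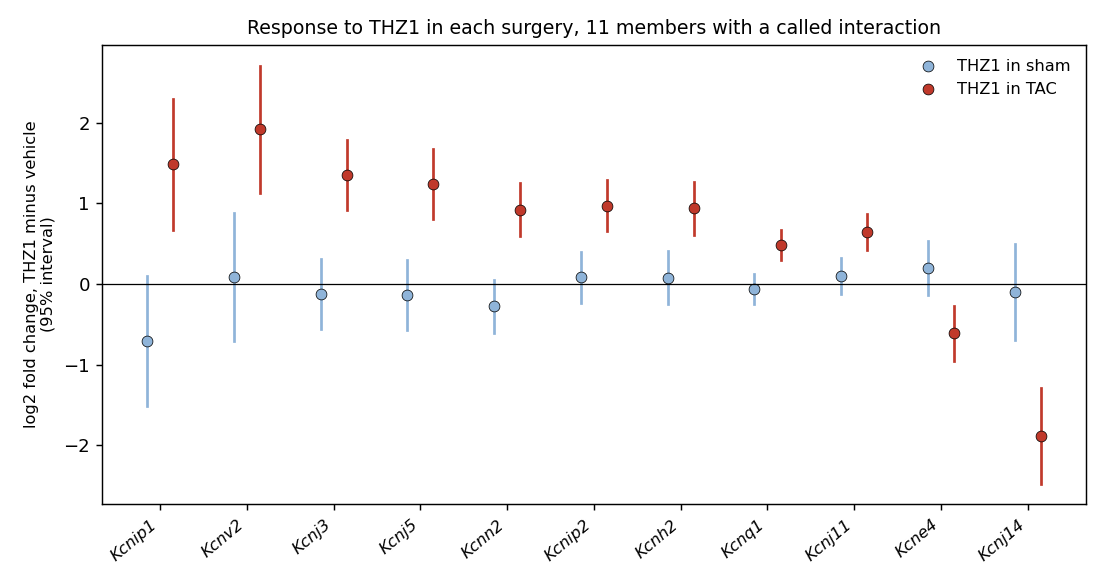
Log2 fold change of THZ1 against vehicle in sham (light blue) and in TAC (red) for the 11 members whose interaction was called, with 95% intervals as vertical lines. The sham intervals of all 11 genes cross 0, while in TAC 9 genes lie above 0, up to 1.92 for Kcnv2, and Kcne4 and Kcnj14 lie below 0.

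TAC against sham among THZ1 mice shares no library with the comparison under vehicle, and it called 13 members lower and 2 higher, where 12.8% of all genes were called lower and 11.4% higher. Of the 24 members lower with TAC under vehicle, 12 were also lower under THZ1, which is 50% of the first list and 92.3% of the second. The same overlap over all genes was not computed, so it cannot be read as particular to potassium channel genes. Both lists held, among others, Kcna1, Kcna6, Kcnd2, Kcnh2, Kcnip2, Kcnj2, Kcnj3, Kcnk3 and Kcnv2. Values of these 24 had a median log2 fold change of -1.15 under vehicle and -0.48 under THZ1, and 22 of 24 were nearer 0 under THZ1. As the 24 were picked for their fall under vehicle, this median is a description only. Kcna1 (-2.07 ± 0.47, adjusted p = 0.00581), Kcnd2 (-0.89 ± 0.15, adjusted p = 0.00148) and Kcnj2 (-0.85 ± 0.15, adjusted p = 0.00177) were called lower under THZ1, as was Kcnk3 (-0.62 ± 0.14, adjusted p = 0.00634). Kcnj11, Kcnq1, Kcnn2 and Kcnj8 were at -0.10 ± 0.11, -0.05 ± 0.09, -0.13 ± 0.16 and 0.02 ± 0.08, none past the threshold. Of 12 ventricular cardiomyocyte markers 2 were lower and 1 higher in this comparison. Kcnab1 was lower under THZ1 but was not called under vehicle (-0.92 ± 0.24, adjusted p = 0.0137), with an interaction of -0.57 ± 0.34 (adjusted p = 0.304). The higher calls were Kcnt2 (0.48 ± 0.14, adjusted p = 0.0214) and Kcnip1 (1.14 ± 0.38, adjusted p = 0.0408).

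Single libraries decided much of the count under THZ1. The lower count fell from 13 to 8 without Sham-THZ1 2 or 3 or TAC-THZ1 3, and to 7 without Sham-THZ1 4 or TAC-THZ1 1. The higher count was 0 without Sham-THZ1 4 and 1 or 2 without any other library. Kcna6 lost its call without any of the 4 Sham-THZ1 libraries or TAC-THZ1 1, 3 or 4 (adjusted p up to 0.103). Kcnh2 lost it without Sham-Veh 2, 3 or 4, any of the 4 Sham-THZ1 libraries or TAC-THZ1 1, 3 or 4 (up to 0.133). For Kcnip2 the libraries were Sham-THZ1 1 and 4 and TAC-THZ1 1 and 3 (up to 0.07), for Kcnj3 Sham-THZ1 2, 3 and 4 and TAC-THZ1 1, 3 and 4 (up to 0.077), and for Kcnv2 the 4 Sham-THZ1 libraries and TAC-THZ1 1, 3 and 4 (up to 0.0982). Kcnip1 lost its higher call without any of the 4 Sham-Veh libraries, Sham-THZ1 1, 2 or 4 or TAC-THZ1 2, 3 or 4 (up to 0.114), and Kcnt2 without Sham-THZ1 4 or TAC-THZ1 1 (up to 0.0763).

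**Figure D5:**
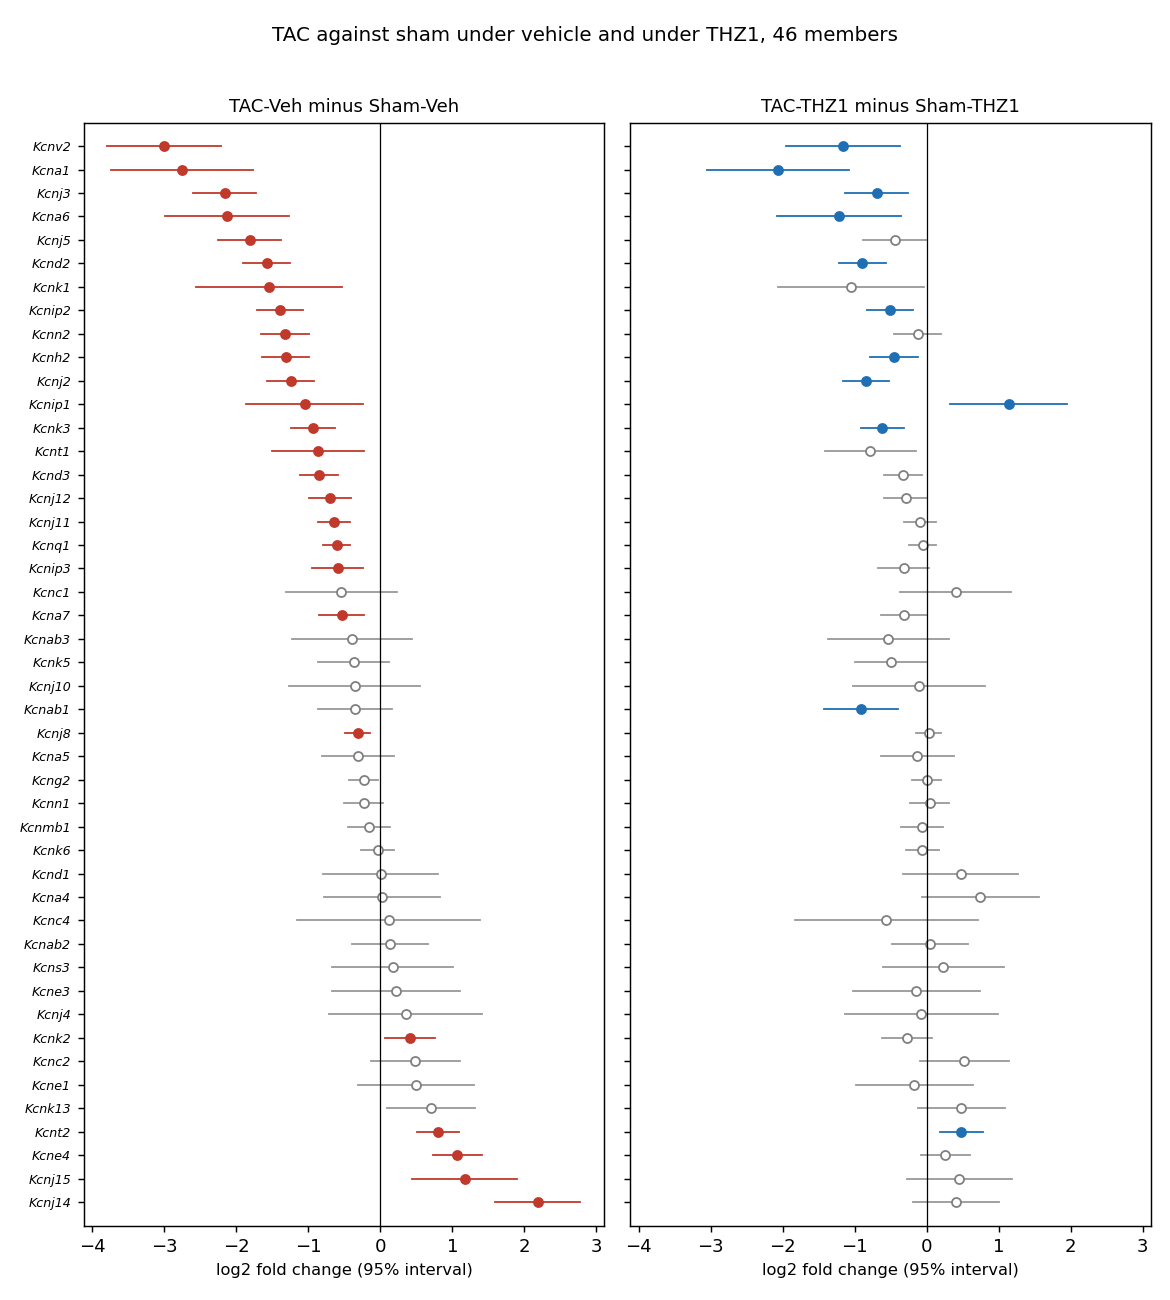
Log2 fold change of TAC against sham with its 95% interval for 46 members, under vehicle (left, red) and under THZ1 (right, blue), ordered by the value under vehicle; filled points passed the adjusted p and open grey points did not. Points on the left reach -3.00 for Kcnv2 and 2.19 for Kcnj14, and on the right most lie nearer 0, with Kcna1 the lowest at -2.07.

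Genes that act with potassium channels in repolarization were described as a list of 24, of which 20 met the level rule (Dpp6, Dpp10, Lrrc26 and Lrrc38 did not). Abcc9, Hcn4 and Irx4 also stand in the pericyte, conduction system and ventricular cardiomyocyte marker lists, in that order. With TAC under vehicle 10 of the 20 were lower and 2 higher, where 23.6% of all genes were called lower and 21.4% higher. Their median was -0.14, against -0.0030 for all genes. The lower ones included Hcn4 (-1.79 ± 0.35, adjusted p = 0.000567) and Hcn2 (-0.80 ± 0.16, adjusted p = 0.000923), pores of the pacemaker current, and Abcc9 (-1.25 ± 0.13, adjusted p = 3.16e-06) and Abcc8 (-0.48 ± 0.09, adjusted p = 0.000375), the sulfonylurea receptors that pair with Kcnj8 and Kcnj11. Iroquois transcription factors of the ventricle, a family known to regulate Kcnd2, were lower too, with -0.45 ± 0.14 for Irx3 and -0.50 ± 0.18 for Irx4, while Irx5 (-0.12 ± 0.12, adjusted p = 0.462) did not pass the test. Cav3, which shapes the membrane pits called caveolae, was higher by 0.32 ± 0.10 (adjusted p = 0.0163). With THZ1 in TAC 6 of the 20 were higher and none lower, where 15.1% of all genes were higher and 14.2% lower. Under THZ1 4 of the 20 were lower with TAC and none higher, where 12.8% of all genes were lower and 11.4% higher. The interaction called 1 of the 20 higher, near the 4.4% of all genes, and none lower, where 5.62% of all genes were. THZ1 in sham called none.

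Other cell markers were recorded beside these values. Atrial genes were low in these ventricle pieces, where Myl7, Sln, Bmp10 and Mybphl did not meet the level rule, and with TAC 2 of the 6 tested were higher and 2 lower. Conduction system markers were lower in 5 of 8 with TAC under vehicle and in 5 of 8 under THZ1, at a summed level of 1303 to 1575 in Sham-Veh and 750.0 to 1050.3 in TAC-Veh. Endothelial markers were higher in 2 and lower in 2 of 8 with TAC under vehicle, and none of 5 lymphocyte markers was called. Over all genes, 23.6% were called lower and 21.4% higher with TAC under vehicle, and the endothelial counts are near these shares. Under THZ1 the shares were 12.8% lower and 11.4% higher. The part of these cells in the change of any potassium channel gene was not tested.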

How the data were processed

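The authors sequenced single-end 40-base reads. Their methods name a KAPA mRNA HyperPrep kit or a TruSeq stranded mRNA kit for the libraries and do not say which sample had which. Reads were aligned with TopHat 2.1.1 to mouse build mm9 (NCBIM37) and counted per gene by strand with HTSeq. The authors deposited 1 table of normalized signal, that is, counts divided by DESeq2 size factors, for 22372 protein-coding genes. All value columns were mapped to samples by their names. Whole reads were recovered for 100% of values within a tolerance of 0.01, giving 21.4 to 35.8 M reads per library, which limits the precision of members with few counts. Mitochondrial genes took 33.2 to 44.7% of reads.

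Log2(normalized count + 1) was fitted with limma 3.58.1 (R 4.3.3, trended variances) with 1 mean per group, over 13331 genes with at least 10 normalized counts in at least 4 libraries. P-values were adjusted by Benjamini-Hochberg over all these genes. On simulated counts with known changes for TAC-Veh against Sham-Veh, over 13331 genes, limma recovered 92% of 2-fold and 100% of 4-fold changes. The simulation gave each gene the same dispersion in all groups and left genes of lowest level unchanged. In the data the median SD on the log2 scale was 0.218 in TAC-Veh and 0.098 in Sham-Veh. Recovery of changes in these groups or in members of low level can therefore differ. DESeq2 1.42.0 and edgeR 4.0.16 on the recovered reads were alternatives, beside another pseudocount, filter, scaling, set of groups, array weights, size threshold and leaving out each library. The fit without TAC-Veh 1 and 2 was added after seeing the data. The members and gene lists were chosen with earlier results of these data known. Values in every library were given for textbook cardiac members and, in each role, up to 3 members with the largest called change whose mean over all libraries reached 50 normalized counts, while the other members printed by library were added after their values were seen. Shares were tested with exact permutation (SciPy 1.17.1). Exon lengths came from the mm9 annotation, and promoter sequences from RefSeq. Replicates of a group differed by more than sampling noise (chi-square per degree of freedom of at least 3.06). The labels give no batch or date. Results of a few genes are included in the counts but not reported here by name.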

Additional observations from a re-analysis of the deposited data

Results flagged for a closer look

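Among 184 sets of 4 libraries (46 members in 4 groups), 10 had 1 library farther from the others than Dixon's critical ratio for 4 values allows, and chance gives about 1 in 20. The extreme normalized counts were 485 for Kcnd2 in TAC-THZ1 2, 222 for Kcnj12 in TAC-Veh 2, 57.6 for Kcna4 and 17.6 for Kcnk5 in TAC-Veh 1, and 22.2 for Kcnt1 in TAC-Veh 4. In sham they were 3378 for Kcnj11 in Sham-Veh 4, 190 for Kcnt2 and 7.42 for Kcnc2 in Sham-Veh 1, 9.63 for Kcnip1 in Sham-Veh 2, and 176 for Kcnk6 in Sham-THZ1 1.

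The response to THZ1 differed between TAC and sham in 11 members by the interaction term of limma. It was greater in TAC by 2.19 ± 0.54 for Kcnip1, 1.83 ± 0.53 for Kcnv2, 1.47 ± 0.29 for Kcnj3, 1.37 ± 0.29 for Kcnj5, 1.20 ± 0.22 for Kcnn2, 0.88 ± 0.21 for Kcnip2, 0.86 ± 0.22 for Kcnh2, 0.55 ± 0.13 for Kcnq1 and 0.55 ± 0.15 for Kcnj11. For Kcnj14 and Kcne4 the difference was -1.78 ± 0.40 and -0.81 ± 0.23. Their adjusted p-values from limma ran from 0.00482 for Kcnn2 to 0.0386 for Kcnv2.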

How the results depend on the processing

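No called difference in a member changed direction under any alternative. Some that were not called did, such as Kcnc1, Kcne1 and Kcna4 with TAC under vehicle, at 0.21, -0.015 and -0.16 without TAC-Veh 1 and 2. Of the calls in single members, 21 of 29 for TAC under vehicle, 11 of 24 for THZ1 in TAC, 7 of 15 for TAC under THZ1 and 6 of 11 for the interaction held in every other fit. With a log2 fold change of 1 or more in size also required, 3 members were higher and 13 lower with TAC under vehicle, 5 and 3 with THZ1 in TAC, 1 and 4 with TAC under THZ1, and 5 and 1 in the interaction. Fitting only the groups compared gave 10 higher and 3 lower with THZ1 in TAC, 1 higher with THZ1 in sham and 1 higher with TAC under THZ1. Array weights gave 1 higher and 1 lower with THZ1 in sham. A mean of at least 50 normalized counts left 1 higher with TAC under THZ1, and no filter on low counts left 1 lower in the interaction. Without TAC-Veh 1 and 2, 3 were higher with TAC under vehicle, 10 higher and 2 lower with THZ1 in TAC, and 5 higher and 1 lower in the interaction. Leaving out each library in turn gave 4 to 6 higher and 21 to 25 lower with TAC under vehicle, 14 to 20 and 5 to 6 with THZ1 in TAC, 0 and 0 with THZ1 in sham, 0 to 2 and 7 to 15 with TAC under THZ1, and 6 to 13 and 1 to 3 in the interaction. DESeq2 called 6 higher and 24 lower with TAC under vehicle and edgeR 6 and 24. The labels do not say whether replicate numbers pair the mice. Of 24 same-numbered pairs, 2 correlated above 0.1 (r from -0.43 to 0.16), which cannot exclude a pairing. With the replicate block the counts were 4 and 24 with TAC under vehicle, 18 and 5 with THZ1 in TAC, 2 and 13 with TAC under THZ1 and 8 and 2 in the interaction. No share of subunits was called. With 1 library left out, the adjustment over 12 comparisons sets the same limit as in the full test, so the absence of calls says nothing of their stability. The cause of these shifts was not tested. Depth limits the 10 members with a group mean under 10 normalized counts.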
